A study of Mus musculus with 48 samples.

Results

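The comparison set mononuclear phagocytes of hearts sham-operated on postnatal day 10 (P10) against those of hearts sham-operated on postnatal day 1 (P1), both collected 7 days after surgery. It held 12 libraries, 6 of each age, of the 48 in the series, and these are all the libraries whose titles give sham surgery and day 7. The animals were wild-type C57BL/6 mice, and their ages at collection were 17 and 8 days. Sham mice went through the thoracotomy of the infarct group, but the left anterior descending coronary artery was not tied. The hearts were cut into 3 positions, called infarct zone, border zone and remote zone after the infarcted hearts (IZ, BZ and RZ), and in sham hearts these names stand for positions only. CD45+F4/80+ cells that excluded 7AAD were sorted, hearts of several pups were pooled for each zone, and each age had 2 such pools, so that every age and zone was covered by replicates 1 and 2. Male and female pups were not kept apart.

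H3K27ac, the acetylation of lysine 27 of histone H3, lies on active promoters and enhancers, and its level near a gene is commonly read as the activity of the gene's regulatory elements. It was measured by CoBATCH, a single-cell form of ChIP-seq in which a transposase fused to protein A cuts next to the antibody, and the deposited reads of each library were pooled over its cells. Mononuclear phagocytes of the heart comprise resident macrophages and cells that arrive from the blood as classical or Ly6c-low monocytes. Resident macrophages take up dying cells and debris. Most of them are seeded before birth, and per the paper others derive from bone marrow monocytes that enter the heart after birth. In pooled libraries, fewer cells of a type and less of the mark per cell cannot be told apart.

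The P1 libraries held 48077 to 470287 unique read pairs and the P10 libraries 281821 to 520638. The smallest was P1 IZ replicate 1, and the next had 122895 pairs. Between 32.17% and 57.38% of the pairs of a P1 library and between 39.32% and 59.52% of those of a P10 library lay in H3K27ac regions. Across 3720 well covered gene windows the correlation of log2 levels between libraries had a median of 0.766 within P1, 0.846 within P10 and 0.753 between the ages, with 12 libraries behind all of these values. The median fragment was 196 to 201 bp in the 3 P10 libraries of replicate 1 and 254 to 302 bp in the other 9. The share of pairs on chromosome Y in replicate 1 was 0.0366% to 0.0707% in P1 and 0.00782% to 0.0098% in P10. In replicate 2 it was 0.00986% to 0.0276% in P1 and 0.0177% to 0.0337% in P10. The mix of sexes in the pools was not tested. Read names showed 1 flow cell that carried libraries of both ages, those of replicate 1. It held 118906 pairs of P1 and 498128 pairs of P10, a part of the pairs of replicate 1. The P1 pool of replicate 1 lay on 6 flow cells and that of P10 on 4, the shared 1 included. The replicate 2 pools of P1 and P10 shared none. For these, and for the other pairs of replicate 1, age and sequencing run cannot be told apart.

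Of 18 tested genes of resident macrophages 12 carried more of the mark in the older sham hearts, and several monocyte genes carried less. Read pairs were counted in a window that ran from 50 kb before a gene to 30 kb behind it, and levels are given as CPM, the pairs in a window scaled to a common total over all tested windows of a library. Of 10159 windows tested, 538 (5.3%) were called by limma-voom, that is, had a Benjamini-Hochberg adjusted p below 0.05, 273 of them higher in P10 (2.69%) and 265 lower (2.61%). Since windows of neighbouring genes overlap, these made up 122 separate stretches of the genome for the higher and 149 for the lower windows. The log2 difference, P10 minus P1, ran from 0.32 to 2.21 with a median of 0.79 in the higher windows and from -2.09 to -0.16 with a median of -0.98 in the lower ones. The sign was the same in IZ, BZ and RZ in 537 of the 538, which follows largely from the call, since that was made on the mean of the 3 zones. The spread behind the p-values and SE was estimated over all 42 libraries in 24 groups, not over these 12 alone, and it is not a spread between animals. The 3 zones of a pool may share animals, and each age has 2 pools.

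Complete separation of the libraries by age was counted next. All 6 P10 libraries lay above all 6 P1 libraries in 128 of the 273 (46.9%), against 2% of all windows. All 6 lay below in 62 of the 265 (23.4%), against 0.965% of all windows. The windows were called on these same libraries, so that larger shares than over all windows follow from the call and are no further evidence. These calls depended on scaling and on single libraries. When libraries were scaled to all deposited pairs, 15 windows passed, 14 higher and 1 lower, and the median of all windows moved from 0.01 to 0.14. Under limma-trend 399 passed, 115 higher and 284 lower, with a median of -0.13. Without P1 IZ replicate 2, P1 BZ replicate 1 or P1 RZ replicate 2 there were 50, 337 and 224 calls, and without P10 IZ, BZ or RZ replicate 1 there were 213, 235 and 164.

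**Figure D1:**
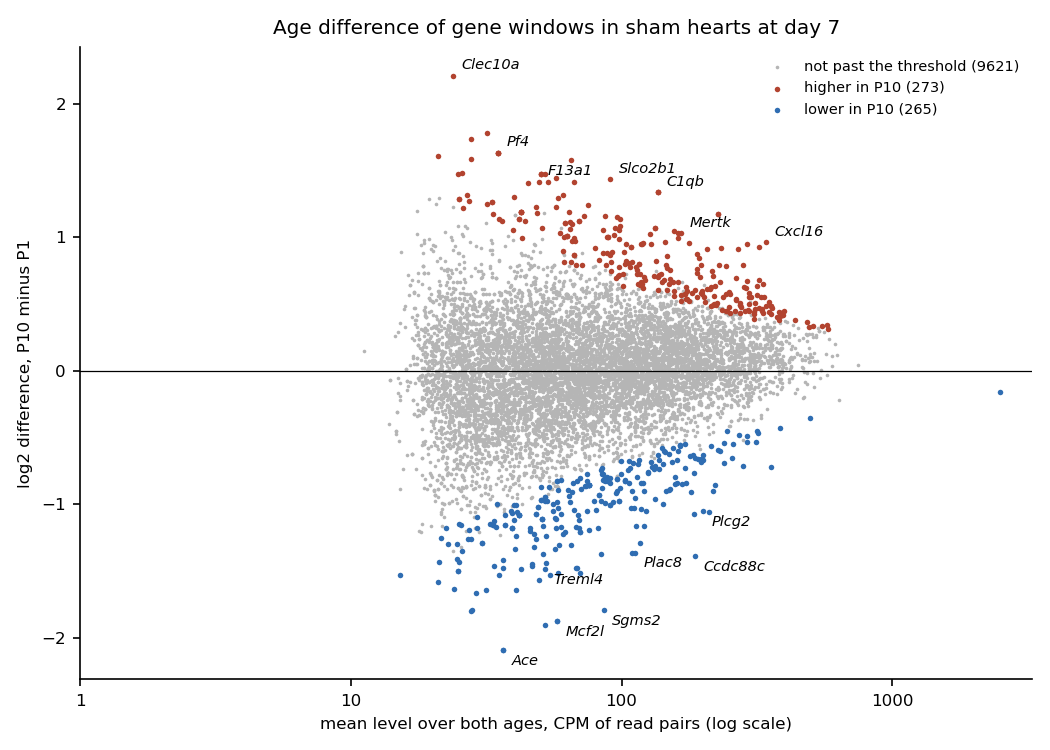
Each point is 1 of the 10159 gene windows, placed by its mean level over both ages (CPM of read pairs, log axis) and its log2 difference, P10 minus P1. Red points are the 273 windows that were higher in P10, blue points the 265 that were lower and grey points the rest, and Clec10a at 2.21 and Ace at -2.09 are the extremes of the called windows.

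Of 18 gene lists, that of resident macrophages had the most called members. Of 19 genes listed as resident macrophage markers, 18 were covered well enough to be tested, 12 rose and none fell, against 2.69% of all windows called higher, with a median log2 difference of 1.02 against 0.01 over all windows. The summed level of the 19 was 1813 to 2503 CPM in the P1 libraries and 3057 to 3808 CPM in the P10 libraries, so that the ages did not overlap. The 12 include C1qa, C1qb and C1qc, whose windows hold the same read pairs and are 1 measurement, counted 3 times in these values. With that window counted once, 10 of 16 rose, the median was 1.00 and the sums were 1715 to 2259 CPM in P1 and 2742 to 3267 CPM in P10. The list was drawn up with results of these data known and is no independent evidence of its direction. Scaling to all deposited pairs left 5 of the 18 called and a count of all pairs in the window left 7 of 19. Without P1 IZ replicate 2 the median was 0.86 and 1 of 18 was called, without P10 RZ replicate 1 the median was 0.99 and 8 were called, and without 1 of the 4 pools 1 to 10 were called.

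C1qa, C1qb and C1qc encode the chains of complement C1q, which tags dying cells and debris for uptake. The window around C1qb (gene on chromosome 4, 136880129 to 136886187, minus strand, GRCm38) held 48.5, 64.0 and 124 CPM as the lowest, median and highest P1 value and 158, 189 and 271 CPM in P10. Every P10 library lay above every P1 library. The log2 difference was 1.34 ± 0.26 (SE, 6 libraries against 6, limma-voom adjusted p = 0.001153). In bins of 2 kb along the locus, the level 5 kb before the C1qb start, in the direction of C1qc, was 6.31 ± 5.24 CPM in P1 and 26.3 ± 11.7 CPM in P10 (SD, n = 6 each), and the excess in P10 covered about the whole cluster.

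Mertk is a receptor by which macrophages engulf apoptotic cells. The window around the gene (chromosome 2, 128698956 to 128802894, plus strand, without the flanks) held 77.2, 115 and 138 CPM as lowest, median and highest in P1 and 192, 213 and 252 CPM in P10. The ages did not overlap, and the log2 difference was 1.03 ± 0.20 (SE, limma-voom adjusted p = 0.0011). Within the window the smallest p belonged to a 6.5 kb region centred 49.8 kb behind the gene start, at 26.4 ± 31.7 CPM in P1 and 80.3 ± 8 CPM in P10 (SD, n = 6 each, region scale).

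Dab2, an endocytic adaptor of alternatively activated macrophages, held 72.7, 94.5 and 162 CPM in P1 and 162, 222 and 257 CPM in P10. The highest P1 library, at 161.5 CPM, lay just under the lowest P10 library, at 162.3 CPM. Its log2 difference was 1.00 ± 0.22 (SE, limma-voom adjusted p = 0.003809).

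Mgl2 and its neighbour Clec10a encode C-type lectins that bind galactose residues. Mgl2 held 13.5, 33.2 and 69.2 CPM in P1 and 82.1, 90.8 and 124 CPM in P10, without overlap. The log2 difference was 1.58 ± 0.30 (SE, limma-voom adjusted p = 0.001024). The Clec10a window, which overlaps that of Mgl2, held 0, 5.66 and 14.2 CPM in P1 and 15.1, 42.6 and 64.4 CPM in P10. Its fitted difference of 2.21 was the largest among all called windows and rests on low P1 counts.

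Further members, Stab1, Mrc1 and Cd163, are scavenger receptors. Stab1, which clears modified lipoproteins, held 200, 273 and 311 CPM in P1 and 356, 405 and 452 CPM in P10. Mrc1, the mannose receptor, held 92.2, 129 and 172 CPM in P1 and 204, 249 and 296 CPM in P10. Cd163, the receptor for haemoglobin bound to haptoglobin, held 16.2, 32.2 and 46.1 CPM in P1 and 52.9, 70.1 and 92.1 CPM in P10. None of these overlapped between the ages, and the log2 differences were 0.55 ± 0.14 for Stab1, 0.76 ± 0.21 for Mrc1 and 1.07 ± 0.30 for Cd163 (SE, limma-voom adjusted p = 0.01134, 0.01913 and 0.02093). Of 16 fits that left out a library or a pool, Stab1 was called in 8, Mrc1 in 7 and Cd163 in 10. The Stab1 call was also lost with the zones of a pool summed and that of Cd163 under limma-trend, and all 3 were lost under scaling to all deposited pairs.

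The remaining called markers were Lyve1, Cbr2 and Pf4. Lyve1, a hyaluronan receptor of perivascular macrophages, held 40.4, 84.2 and 103 CPM in P1 and 121, 131 and 153 CPM in P10, without overlap (log2 difference 0.81, limma-voom adjusted p = 0.02607). The Lyve1 call was lost with the zones of a pool summed, under limma-trend and in 3 more of 13 alternative settings, and in 7 of 16 fits that left out a library or a pool. Cbr2, a carbonyl reductase, held 23.1, 65.3 and 96.9 CPM in P1 and 70.3, 118 and 153 CPM in P10, with overlap (1.01, limma-voom adjusted p = 0.0213). The Cbr2 call was lost in 4 of 13 alternative settings, namely zones of a pool summed, limma-trend, scaling to all deposited pairs and all pairs in the window, and in 9 of 16 such fits. Pf4, a platelet chemokine that cardiac macrophages also express, held 0, 16.7 and 32.5 CPM in P1 and 37.1, 56.1 and 66.6 CPM in P10, without overlap (1.63, limma-voom adjusted p = 0.003809). In the flow cell that carried both ages the Pf4 value was -0.19, on 33 pairs of P10 and 5 of P1. For this ratio 1 pair was added to each count, and at such low counts the sign can rest on that pair. Among the other named windows only Cxcl3, which holds the same pairs, had the other sign there. Lyve1 was at 0.01 and Mrc1 at 0.29 in that flow cell.

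Of the 18 tested members 6 did not pass. Adgre1, which encodes the sorting antigen F4/80, differed by 0.20 ± 0.17 (SE, limma-voom adjusted p = 0.6279), at 132 ± 34.3 CPM in P1 and 172 ± 32 CPM in P10 (SD, n = 6 each). Csf1r, the receptor for macrophage colony-stimulating factor, differed by 0.20 (limma-voom adjusted p = 0.5208) and Cx3cr1, the fractalkine receptor, by -0.02 (limma-voom adjusted p = 0.9721). Folr2 at 0.39, Fcrls at 1.18 and Gas6, the Mertk ligand, at 1.29 did not pass either (limma-voom adjusted p = 0.2636, 0.05079 and 0.05371). Timd4 was too thinly covered to be tested.

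**Figure D2:**
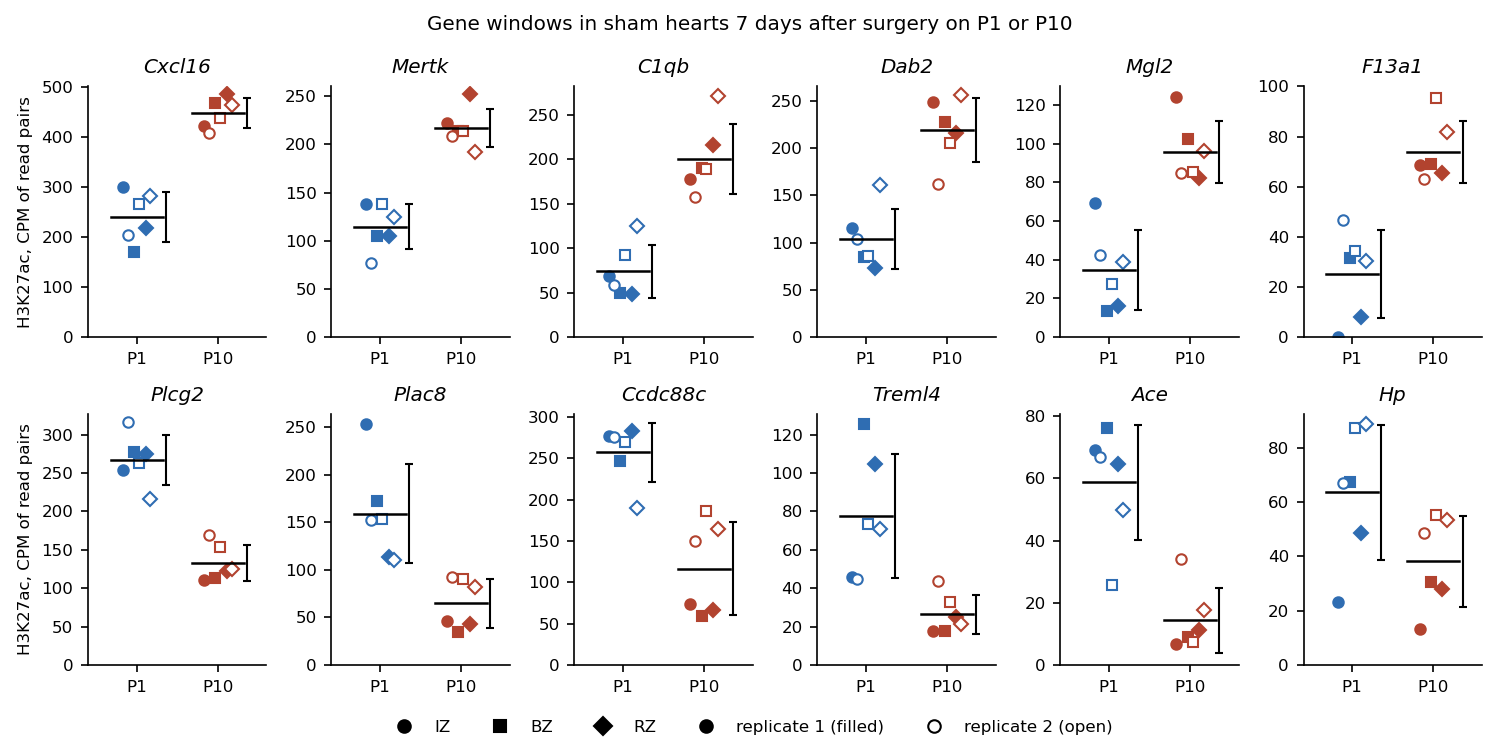
H3K27ac in 12 gene windows (y axis, CPM of read pairs from 0) in the 6 P1 (blue) and 6 P10 (red) sham libraries. Circles, squares and diamonds are IZ, BZ and RZ, filled points are replicate 1 and open points replicate 2, with lines at the mean and bars for the SD. The upper windows lie higher in P10 and the lower windows lie lower, as for C1qb (48.5 to 124 CPM against 158 to 271 CPM) and Plac8 (110 to 254 CPM against 34.5 to 92.1 CPM).

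Several markers of both monocyte kinds fell in the older hearts. Of 10 genes listed for Ly6c-low monocytes 8 were tested and 3 fell, with a median of -0.17. Of 10 listed for classical monocytes 5 were tested, 3 fell and F13a1 rose, with a median of -1.11. Over all windows 2.61% were called lower and 2.69% higher. The summed levels overlapped between the ages, at 1536 to 2420 CPM in P1 and 1406 to 1720 CPM in P10 for the first list and at 355 to 553 CPM and 312 to 588 CPM for the second. Under scaling to all deposited pairs no member of either list passed, and the medians were -0.13 and -0.86. Without P10 IZ replicate 1, P10 RZ replicate 1 or P1 IZ replicate 2, 1 member of the Ly6c-low list fell, and in the classical list 1 fell and 1 rose. The classical list gave the same counts without P1 RZ replicate 2 or P10 BZ replicate 1. No member of either list was called without the P10 replicate 1 pool, where the classical median was -0.41, or when all pairs in the window were counted, and none of the Ly6c-low list without the P1 replicate 1 pool.

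Ace, the angiotensin-converting enzyme, is a marker of Ly6c-low monocytes. The window around the gene (chromosome 11, 105967945 to 105989964, plus strand, without the flanks) held 25.6, 65.8 and 76.2 CPM in P1 and 6.66, 10.0 and 33.9 CPM in P10. The highest P10 library (IZ replicate 2) lay above the lowest P1 library (BZ replicate 2), and the other libraries did not overlap. The log2 difference was -2.09 ± 0.53 (SE, limma-voom adjusted p = 0.01128). Along the gene, P1 libraries had a peak at the start and another in the bin centred 21 kb behind it, at the end of the gene, with 13.8 ± 5.83 CPM in P1 and 1.48 ± 1.98 CPM in P10 (SD, n = 6 each).

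Treml4, a receptor of the TREM family on Ly6c-low monocytes, held 44.7, 72.3 and 126 CPM in P1 and 17.8, 23.2 and 43.6 CPM in P10. Its window overlaps called windows of other Trem genes, Trem1 among them, and its 1 called region was centred 16.8 kb before the Treml4 start. The ages did not overlap, and the log2 difference was -1.48 ± 0.34 (SE, limma-voom adjusted p = 0.005816). Pou2f2, an octamer-binding transcription factor, held 278, 356 and 576 CPM in P1 and 197, 243 and 293 CPM in P10, with overlap (-0.45, limma-voom adjusted p = 0.0281). The Pou2f2 call was lost with the zones of a pool summed, under scaling to all deposited pairs and with all pairs in the window. Nr4a1, the nuclear receptor on which these monocytes depend, differed by -0.17 ± 0.14 (SE, limma-voom adjusted p = 0.6167).

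Plac8, a small protein abundant in circulating monocytes, held 110, 153 and 254 CPM in P1 and 34.5, 64.3 and 92.1 CPM in P10. The ages did not overlap and the log2 difference was -1.36 ± 0.24 (SE, limma-voom adjusted p = 0.0003837). The P10 libraries of replicate 1 lay below those of replicate 2, at 34.5 to 46.6 CPM against 81.9 to 92.1 CPM. Hp, haptoglobin, held 23.1, 67.1 and 88.8 CPM in P1 and 13.3, 39.6 and 55.2 CPM in P10, with overlap (-1.11, limma-voom adjusted p = 0.02649).

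F13a1, the coagulation factor XIII A chain, moved the other way from the rest of its list. It held 0, 30.8 and 46.7 CPM in P1 and 63.0, 68.9 and 95.4 CPM in P10, without overlap. The log2 difference was 1.42 ± 0.35 (SE, limma-voom adjusted p = 0.009063). F13a1 is known in resident macrophages as well as in monocytes. Ccr2, the chemokine receptor of classical monocytes, differed by -0.04 ± 0.19 (SE, limma-voom adjusted p = 0.9635), at 171 ± 43.2 CPM in P1 and 199 ± 49.8 CPM in P10 (SD, n = 6 each).

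**Figure D3:**
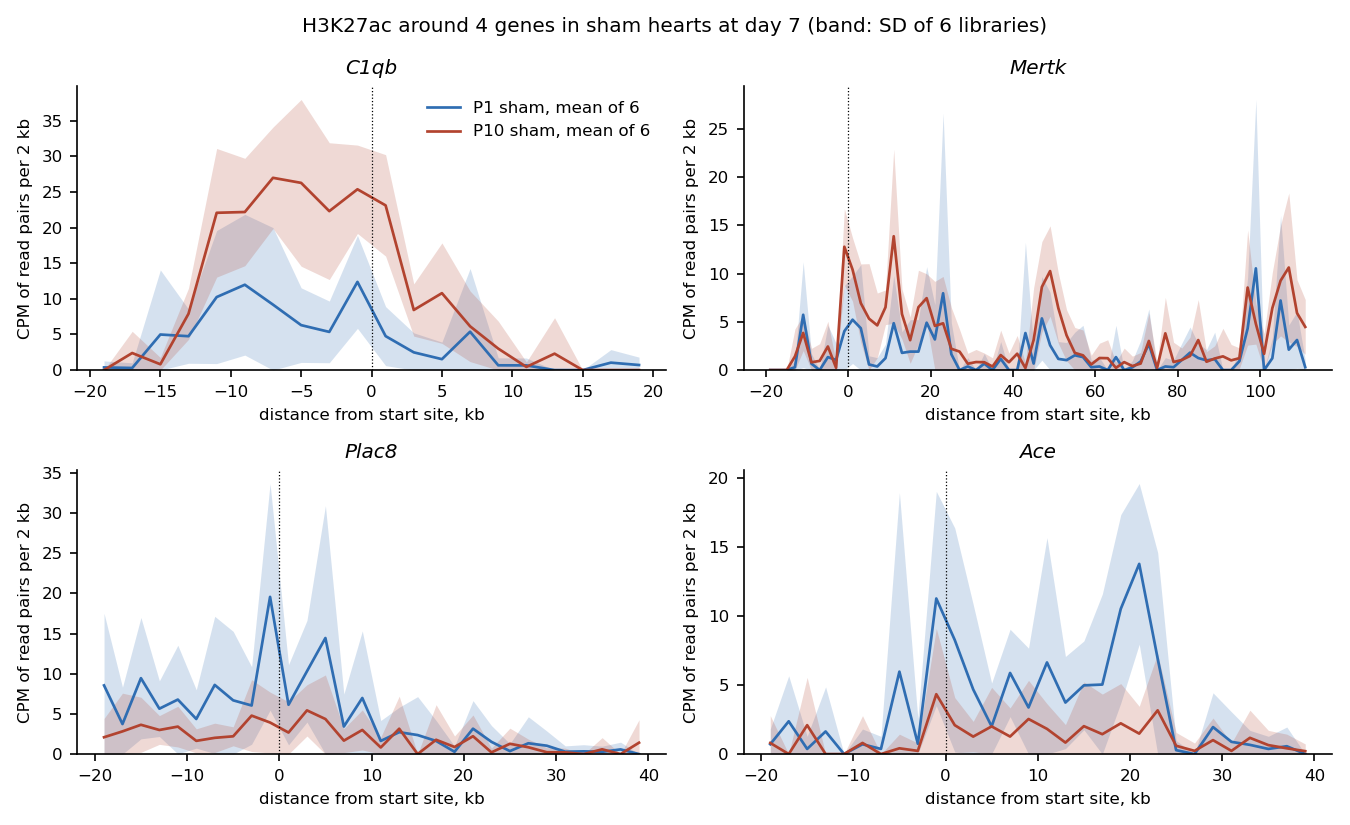
Mean H3K27ac level (CPM of read pairs per 2 kb) by distance from the gene start in the direction of transcription, for P1 (blue) and P10 (red) sham libraries, with a band of 1 SD over 6 libraries. The mark is higher in P10 across the C1q cluster (26.3 against 6.31 CPM at 5 kb before C1qb) and higher in P1 at the start and end of Ace (13.8 against 1.48 CPM at 21 kb).

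Outside the marker lists, the windows with the smallest adjusted p that were higher in P10 began with Atp5o. This gene encodes a subunit of the mitochondrial ATP synthase, and its window of 323 kb overlaps the called windows of Itsn1 and Cryzl1. The region with the smallest p in it was centred 186.5 kb behind the Atp5o start, so that the difference cannot be assigned to this gene alone. The window held 108, 150 and 207 CPM in P1 and 267, 307 and 340 CPM in P10, without overlap, for a log2 difference of 1.17 ± 0.16 (SE, limma-voom adjusted p = 5.477e-06).

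Cxcl16 encodes a chemokine that, in its membrane-bound form, is also a scavenger receptor for oxidised lipoprotein. The window around the gene (chromosome 11, 70453983 to 70459984, minus strand, without the flanks) overlaps called windows of its neighbours, among them Med11 and Pelp1. It held 170, 242 and 300 CPM in P1 and 407, 450 and 486 CPM in P10. The gap between the highest P1 and the lowest P10 library was wider than the whole range of the P10 libraries, and the log2 difference was 0.96 ± 0.15 (SE, limma-voom adjusted p = 3.926e-05).

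Slco2b1, an organic anion transporter, held 24.2, 57.6 and 69.2 CPM in P1 and 119, 130 and 153 CPM in P10, without overlap (log2 difference 1.43 ± 0.28, limma-voom adjusted p = 0.001004). Ninj2, a membrane adhesion protein, held 165, 225 and 231 CPM in P1 and 308, 355 and 399 CPM in P10, also without overlap (0.79 ± 0.14, limma-voom adjusted p = 0.000246). The others named by the same rule were Ppcdc at 1.07, Ppm1j at 1.41, Gm12166 inside the Adam19 window at 1.15, Bin1 at 0.92 and Nfatc2, a calcium-regulated transcription factor, at 0.92. In Ppcdc, Bin1 and Nfatc2 the libraries of the ages overlapped.

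The windows with the smallest adjusted p that were lower in P10 were Ccdc88c, Pdcd1lg2 and Plcg2. Plcg2, the phospholipase C downstream of Fc and TREM receptors, held 217, 269 and 317 CPM in P1 and 111, 124 and 170 CPM in P10. The ages did not overlap, and the log2 difference was -1.05 ± 0.17 (SE, limma-voom adjusted p = 6.324e-05). Pdcd1lg2, which encodes the PD-1 ligand PD-L2, held 210, 250 and 291 CPM in P1 and 84.4, 127 and 189 CPM in P10, without overlap (-1.07 ± 0.17, limma-voom adjusted p = 4.159e-05).

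Ccdc88c encodes a scaffold protein of Wnt and G-protein signalling. It held 190, 273 and 283 CPM in P1 and 58.8, 111.7 and 186 CPM in P10, without overlap (-1.39 ± 0.21, limma-voom adjusted p = 3.926e-05). Its P10 level was 58.8 to 73.3 CPM in replicate 1 and 150 to 186 CPM in replicate 2. Emilin2, an extracellular matrix glycoprotein, and Coro2a, an actin-binding protein, were at -1.06 and -0.71, and in these windows the ages did not overlap. Gsr, glutathione reductase, was at -1.36, Dock5 at -1.51, Sgms2, a sphingomyelin synthase, at -1.79, Mcf2l at -1.87 and Hsh2d at -0.91, each with overlap between the ages.

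**Figure D4:**
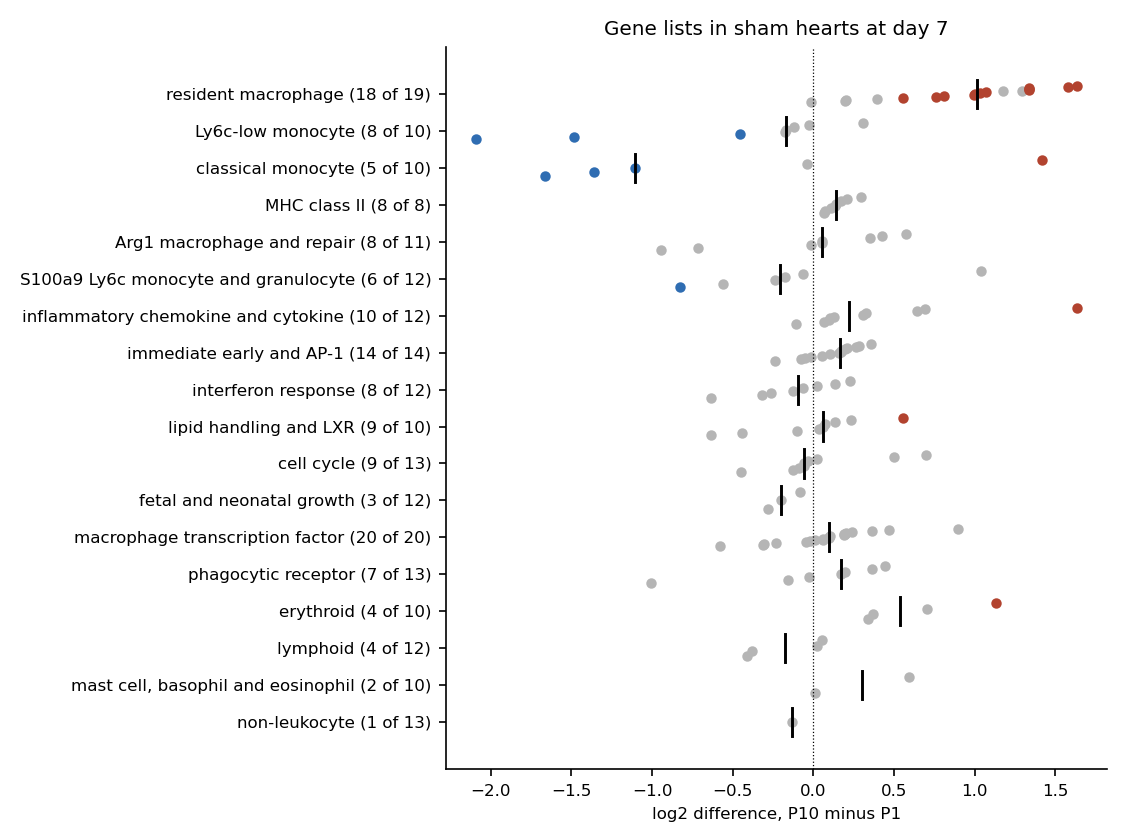
Each point is the log2 difference, P10 minus P1, of 1 tested gene of the list named on the y axis, with the number tested of the number listed. Red and blue points passed an adjusted p of 0.05, grey points did not, and black bars are the medians. The median is 1.02 for resident macrophage genes and -1.11 for classical monocyte genes, against 0.14 for MHC class II.

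The other fixed lists gave few calls. With 5.3% of all windows called, lists of this size would hold few calls in any case. None of the 8 genes of MHC class II antigen presentation passed, with a median of 0.14 and all 8 between 0.07 and 0.30. None of the 14 immediate early and AP-1 genes passed, at -0.24 to 0.36, and none of the 20 macrophage transcription factors, among which Maf was at 0.90 ± 0.31 (SE, limma-voom adjusted p = 0.07328). Cebpa, Id3 and Mef2c were at 0.47, -0.58 and 0.37. In the list of the Arg1 macrophage and repair none of 8 passed, Trem2 was at -0.94 (limma-voom adjusted p = 0.09535) and Arg1 at -0.72 (limma-voom adjusted p = 0.2798).

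The counts that follow stand against 5.3% of all windows called and are near what that share gives in short lists. Of the inflammatory chemokine and cytokine genes 1 of 10 passed, Cxcl3, whose window holds the same read pairs as that of Pf4. Cxcl2 and Cxcl1 were at 0.69 and 0.64, Ccl3 and Ccl4 at 0.32 and 0.31 and Tnf at 0.11, none of them past the threshold. Abca1, the cholesterol exporter and a target of the LXR receptors, was the 1 of 9 lipid genes that passed. It held 138, 154 and 186 CPM in P1 and 177, 246 and 303 CPM in P10, with overlap (0.56, limma-voom adjusted p = 0.02956). The Abca1 call was lost with the zones of a pool summed, under scaling to all deposited pairs and with all pairs in the window. None passed among 8 interferon response, 9 cell cycle, 7 phagocytic receptor and 3 fetal and neonatal growth genes, with medians of -0.09, -0.05, 0.17 and -0.20.

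Markers of other cells were read as a description of the sort and not as a test of it. Over all windows 2.69% were called higher and 2.61% lower. In the granulocyte and S100a9 monocyte list 1 of 6 fell, Csf3r, the receptor for granulocyte colony-stimulating factor, at 88.9, 138 and 161 CPM in P1 and 65.3, 71.3 and 104 CPM in P10 (-0.83, limma-voom adjusted p = 0.0141). Il18r1, the 1 tested member with a positive difference, was at 1.04 and did not pass (limma-voom adjusted p = 0.1212). S100a9, S100a8, Cxcr2 and Ly6g of this list of 12 were too thinly covered to be tested. In the erythroid list 1 of 4 rose, Tal1, a haematopoietic transcription factor, at 0, 30.7 and 37.6 CPM in P1 and 36.3, 60.3 and 67.8 CPM in P10 (1.14, limma-voom adjusted p = 0.02055), and the summed level of the list was 129 to 207 CPM in P1 and 206 to 309 CPM in P10. The libraries of the ages overlapped in the Csf3r and Tal1 windows. The Tal1 call was lost in 5 of 12 alternative settings, limma-trend among them, and in 8 of 16 fits that left out a library or a pool. The defining genes Hbb-bs and Hbb-bt had no pair within a region. None of 4 lymphoid genes passed (Cd79a at -0.41), none of 2 mast cell, basophil and eosinophil genes, and not Pecam1, the 1 tested of 13 genes of other heart cells, at -0.13. Tnnt2, Actc1, Postn, Pdgfra, Tcf21 and Wt1, which mark heart muscle, fibroblasts and epicardium, had no pair within a region in any of the 12 libraries. Igfbp7, Col1a1, Col4a1, Kdr, Cdh5 and Myh6 of the same list did hold pairs, but too few to be tested. Only pairs in regions called on the phagocyte libraries were counted, so that a window without a region holds 0 in any case. The part of other cells in the results was not tested.

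Single regions showed where in the windows the mark differed. Regions were bins of 500 bp whose level, with equal weight per group, was at least 4 times the mean over all bins that held a pair. Bins whose starts lay up to 1000 bp apart were joined, and CPM here is scaled to the pairs counted in tested regions. Of 12490 tested, 367 (2.94%) passed in limma-voom with Benjamini-Hochberg adjustment, 199 higher (1.59%) and 168 lower in P10 (1.35%). Under median-of-ratios factors the split was 153 higher and 245 lower, and under limma-trend 81 and 169. Without P1 IZ replicate 2, 30 regions passed, and without P10 IZ replicate 1, 99.

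The share of regions at a promoter was highest over all tested regions and lowest among those that fell. A start site of a coding transcript lay within 1 kb of 63.2% of all tested regions, of 54.3% of the higher ones and of 35.7% of the lower ones. Intergenic regions made up 19.4% of all, 18.1% of the higher and 32.1% of the lower regions, and intronic ones 16.1%, 25.1% and 29.2%. The called regions were also longer, with medians of 8000 and 5000 bp against 4000 bp over all, so that these shares are descriptions of unlike regions.

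The higher region with the smallest adjusted p spanned 45.0 kb (chr11:70431001-70476000) around Cxcl16, Med11 and Zmynd15, at 515 ± 101 CPM in P1 and 1060 ± 107 CPM in P10 (SD, n = 6 each, log2 difference 1.04). The next by adjusted p covered the 3 C1q genes (chr4:136879501-136900000) at 193 ± 98.5 CPM and 584 ± 102 CPM (1.45). At Dab2 a 10.5 kb region inside the gene (chr15:6384001-6394500), 0.2 kb from an inner start site and 89.5 kb behind the first, held 38.3 ± 24.5 CPM and 160 ± 31.6 CPM (2.04). In each of these every P10 library lay above every P1 library. Regions at Rab3il1, Slc29a1 and Plekhg5 were at 1.297, 1.232 and 2.03.

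Most of the named lower regions were intergenic. The first by adjusted p (chr3:121597001-121599000), 65.6 kb from Slc44a3, held 35.6 ± 13.5 CPM in P1 and 1.76 ± 2.87 CPM in P10 (SD, n = 6 each, log2 difference -3.09), and its counts are low. The regions near Fignl1 (chr11:11774501-11779000) and Slc52a3 (chr2:152011001-152014000) were at -2.70 and -2.94. Regions inside Ccdc88c and near Padi1 were at -1.75 and -2.26, and there, as in the other 3, all P10 libraries lay below all P1 libraries.

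The 300 bases with most read pairs are shown for 2 regions of each direction, to let the sequence of the C1q cluster and of a stretch inside Dab2 be set beside that of regions that were lower in the older hearts. They were read from the plus strand of GRCm38, and capitals mark matches to any of 8 short motifs listed next. C1q is chr4:136886021-136886320, Dab2 is chr15:6386481-6386780, Slc44a3 is chr3:121597131-121597430 and Fignl1 is chr11:11776471-11776770.
C1q, higher in P10: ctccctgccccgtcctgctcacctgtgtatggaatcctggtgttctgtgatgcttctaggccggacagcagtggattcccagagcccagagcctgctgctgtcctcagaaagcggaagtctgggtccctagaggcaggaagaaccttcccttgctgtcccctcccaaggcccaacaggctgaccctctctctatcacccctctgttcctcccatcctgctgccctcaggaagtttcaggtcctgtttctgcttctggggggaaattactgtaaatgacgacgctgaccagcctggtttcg
Dab2, higher in P10: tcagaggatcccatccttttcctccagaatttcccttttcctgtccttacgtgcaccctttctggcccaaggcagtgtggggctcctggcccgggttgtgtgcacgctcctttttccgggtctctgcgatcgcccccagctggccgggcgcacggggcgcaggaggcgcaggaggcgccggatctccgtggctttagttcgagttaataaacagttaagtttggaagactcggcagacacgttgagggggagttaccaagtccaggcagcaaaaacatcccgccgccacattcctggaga
Slc44a3, lower in P10: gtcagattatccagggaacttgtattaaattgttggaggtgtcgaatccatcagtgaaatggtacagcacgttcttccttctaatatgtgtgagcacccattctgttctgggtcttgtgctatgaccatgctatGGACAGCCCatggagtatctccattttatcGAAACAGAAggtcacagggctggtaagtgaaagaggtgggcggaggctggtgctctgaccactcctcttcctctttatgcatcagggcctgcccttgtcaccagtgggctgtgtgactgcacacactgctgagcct
Fignl1, lower in P10: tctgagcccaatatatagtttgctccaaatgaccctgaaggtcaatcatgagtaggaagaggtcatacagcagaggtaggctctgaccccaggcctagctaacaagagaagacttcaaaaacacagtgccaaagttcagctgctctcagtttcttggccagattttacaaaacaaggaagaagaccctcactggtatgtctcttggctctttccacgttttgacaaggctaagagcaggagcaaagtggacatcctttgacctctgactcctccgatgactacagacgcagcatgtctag
The C1q, Dab2 and Fignl1 stretches held none of the 8 motifs, and the Slc44a3 stretch held 1 match to the NF-kB and 1 to the IRF letters. In the order shown, their GC contents were 57.7%, 59%, 49.7% and 47%.

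The motifs were searched on both strands in the 300 bases with most pairs of every tested region, and a match is a description of the letters and not a binding site. GAGGAAGT, for PU.1, was held by 10.1% of the higher regions (20 of 199), by 4.17% of the lower (7 of 168) and by 5.45% of all. TGTGGTT, for RUNX, was held by 9.55%, 7.14% and 5.47%, and TGCTGAC, for MAF, by 8.04%, 4.76% and 5.65%. The letters of PU.1, the factor that macrophages and monocytes share, had their highest share in the higher regions, and among promoters alone the shares were 10.2% of 108 higher and 3.91% of all 7898 stretches. Outside promoters the shares were closer, at 9.89% of 91 higher and 8.10% of all 4592.

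Other letters were more frequent among the lower regions as a whole. AAAGGTCA, for NR4A receptors, was held by 4.76% of the lower (8 of 168), by 1.51% of the higher (3 of 199) and by 1.23% of all. GAAANNGAA, for IRF factors, was held by 10.7%, 3.52% and 7.77%, and TTGCNNAA, for C/EBP, by 13.7%, 8.54% and 9.34%. Outside promoters, where more of the lower regions lay, the shares of the lower and of all regions were 10.2% and 10.7% for IRF, 11.1% and 12.5% for C/EBP and 6.48% and 2.00% for NR4A. Among promoters they were 11.7% of 60 lower and 6.10% of all for IRF, 18.3% and 7.48% for C/EBP and 1.67% and 0.772% for NR4A. TGANTCA for AP-1 was held by 8.33%, 10.6% and 8.56% and GGGNNNTCC for NF-kB by 20.2%, 20.6% and 20.9%. The median GC content of the 300 bases was 51.7% in lower, 53.3% in higher and 56.3% in all regions, and no test was made of these shares.

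The age difference was next compared between the zones, which in sham hearts received no infarct. No window differed in its age difference between IZ and RZ (0%) in limma-voom with Benjamini-Hochberg adjustment, with 498 at an unadjusted p under 0.05 and a smallest adjusted p of 0.925. None did in limma-trend either, with 651 at an unadjusted p under 0.05. Without P1 IZ replicate 2 there were 34 such windows, 32 of them with the higher value in IZ, and without P1 RZ replicate 2 there were 10.

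Both pools of an age entered each value, and the medians were larger in size in replicate 1. With the zones of a pool summed, the median over the 273 higher windows was 0.91 in replicate 1 and 0.59 in replicate 2, and over the 265 lower windows -1.22 and -0.65, beside -0.03 and 0.00 over all windows. Plac8, for example, was at -2.03 and -0.63 and C1qb at 1.92 and 1.08. In the flow cell that carried both ages, with 118906 pairs of P1 and 498128 pairs of P10, the medians were 0.76 and -1.22, beside -0.15 over all windows. Each of these values is a ratio of summed counts with 1 pair added to each count, which matters most where P1 counts were low. The pairs of this flow cell are part of the replicate 1 libraries on which the calls rest, so that they are no separate check of the sign. The part of the fragment length, which in P10 replicate 1 was shorter than in the other sham libraries of day 7, was not tested.

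Infarcted hearts of the same ages and day, which are separate libraries but share their flow cells with the sham pools of the same age and number, were set beside them. There 6.45% of windows passed for P10 against P1. Of the 273 windows higher in P10 sham hearts 271 (99.3%) had the same sign and of the 265 lower ones 259 (97.7%), against 70.2% of all windows, with medians of 0.64 and -0.80. The same call was made in 134 (49.1%) and 150 (56.6%). In these infarcted hearts too the median fragment was shorter in P10 replicate 1, at 197 to 203 bp against 240 to 268 bp in P1 replicate 1. In replicate 2 it was 267 to 282 bp in P10 and 279 to 292 bp in P1. The part of the fragment length in this agreement was not tested. The resident macrophage list had a median of 0.97 in the infarcted hearts, Plac8 was at -1.42 and Ace at -2.45.

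In sham hearts at day 3 after surgery no window passed for P10 against P1 (0%) in limma-voom with Benjamini-Hochberg adjustment, and 1053 did at an unadjusted p under 0.05, with 1 pool of P1 and 2 of P10. Of the windows called at day 7, 168 of 273 (61.5%) and 211 of 265 (79.6%) had the same sign at day 3, against 54.2% of all windows. Their medians were 0.09 and -0.26. The resident macrophage list had a median of 0.34 there. The day 3 animals were 4 (P1) and 13 (P10) days old at collection, so that animal age differs between the days as well as time after surgery. Whether the age difference differs between the days was not tested.

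**Figure D5:**
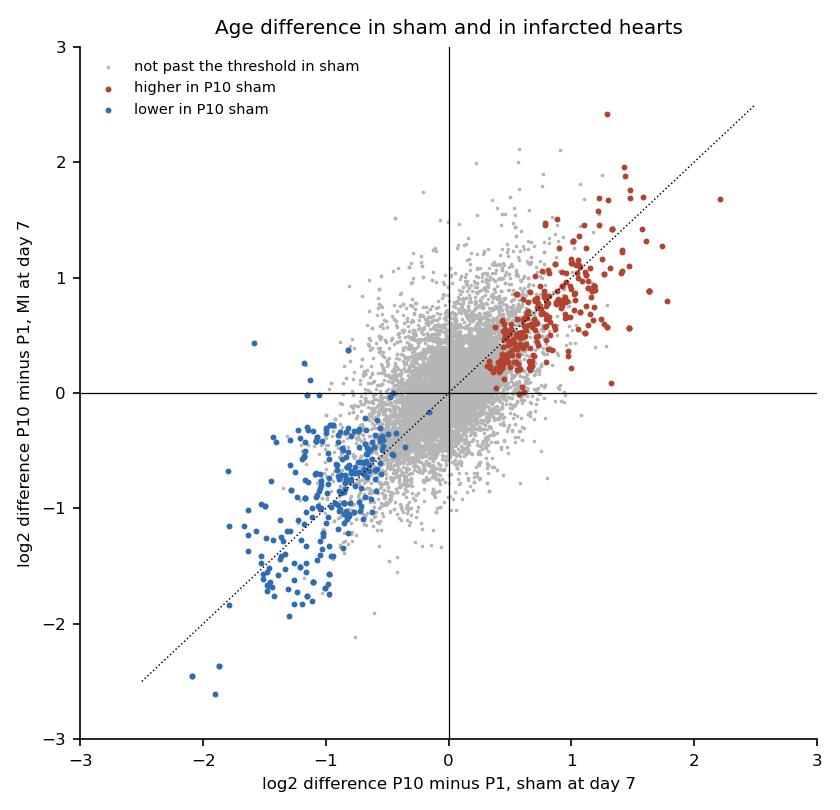
Log2 difference, P10 minus P1, of each of the 10159 windows in sham hearts (x axis) and in infarcted hearts (y axis) at day 7, with the line of equal values dotted. Red and blue points are the 273 windows higher and the 265 lower in P10 sham hearts, of which 271 and 259 have the same sign in the infarcted hearts.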

How the data were processed

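H3K27ac CoBATCH reads of 42 libraries were used, of which 12 enter the comparison, and 6 samples of the series were not analysed here. Surgery was taken from the titles, since the treatment label names infarction for all. Per the labels and methods, the authors split the cell barcodes, aligned with Bowtie2 to mm10, removed duplicates with Picard and discarded poorly mapped reads and cells with few or very many reads. The deposited files list 1 aligned read per line with a mapping quality score, and the authors pooled the cells of a library without barcodes. The score was not used as a measurement.

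Mates were joined by read name and repeated lines dropped, which made up 0% to 32.16% of the lines in P1 and 0% to 15.34% in P10 libraries. In replicate 2 libraries 7.30% to 29.2% of pairs had only 1 mate listed, in replicate 1 none. No read name occurred in 2 libraries. Regions were called on all libraries with equal weight per group (27160 regions of 88.9 Mb). Pairs in regions were counted per window of 21938 GENCODE genes (GRCm38), where the libraries held 10 or more pairs on average (3 for regions). TMM factors (0.982 to 1.05 in the 12 libraries) and limma 3.58.1 (R 4.3.3) voom were applied to 24 group means, with the 14 pools as random block (correlation 0.107 for windows, 0.0565 for regions) and the mean over 3 zones as contrast, two-sided, with Benjamini-Hochberg adjustment at 0.05. The window and region fits were tested on simulated data first. The pool was kept as block because its zones may share animals. The labels name no animal, litter or day shared by same-numbered pools of the 2 ages (deviations of same-numbered libraries correlated at 0.0731, 0.108 and 0.141 in IZ, BZ and RZ).

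Named windows were up to 12 per direction by adjusted p, with the same sign in 3 zones and without overlap, and the called members of 18 lists (221 genes). Named regions were up to 6 per direction. A few named items are not reported here. The comparison, gene lists and rules were chosen with earlier results of these data known. Sequences came from the GRCm38 reference genome. Intervals beyond the SE were not computed, and depth enters through the voom weights. Python 3.11.15 and pandas 2.3.3 were used.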

Additional observations from a re-analysis of the deposited data

Results flagged for a closer look

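In 2 of 88 groups checked, a library stood apart from the other 5, and about 5% of groups would do so by chance. A group was the 6 libraries of 1 age, taken in 1 named window or in read pairs, share of pairs in regions or fragment length. In the window of Mcf2l, a guanine nucleotide exchange factor gene, P1 IZ replicate 1 held 23.05 CPM, whereas the next lowest P1 library held 88.8 CPM. This library is the smallest of the 12. In the window of Csf3r, P10 IZ replicate 2 held 104.2 CPM, whereas the next highest P10 library held 78.4 CPM.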

How the results depend on the processing

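The windows called numbered 538. They were 888 with the replicate block, which adds the replicate number as a fixed term, 815 with no random block for pools, 325 with the zones of a pool summed, 352 with a minimum 3 times as high, 15 when scaled to all deposited pairs and 50 when all pairs in a window were counted. The shares of pairs within regions differed between libraries, and the cause of these changes was not tested. Leaving out 1 library or pool gave 29 to 581 windows, lowest without the P10 replicate 1 pool (29), the P1 replicate 2 pool (53) or P1 IZ replicate 2 (50), and 235 without the P1 replicate 1 pool. The regions called numbered 367, with 554 under the replicate block, 41 when scaled to all deposited pairs and 21 to 395 when a library or pool was left out, also low without P1 BZ replicate 1 (225), P1 RZ replicate 1 (239) or 2 (210), P10 BZ replicate 1 (166) or RZ replicate 1 (180). With the 1-pool fits the lone pool was assumed to vary like the other groups. Windows whose age difference differed between IZ and RZ numbered 0, and 0 to 34 when a library or pool was left out. The remaining alternatives stayed within 1.5 times the main counts, including median-of-ratios factors (532 windows, 398 regions), repeated lines kept (534, 313) and, chosen after seeing the data, only pairs with both mates listed (474, 327). Among named windows the direction changed only for Pf4 and Cxcl3, at -0.1868 in the flow cell that carried both ages, an alternative also chosen after seeing the data. That value rests on 33 pairs of P10 and 5 of P1, with 1 pair added to each count, so that its sign is not settled. Leaving out each of 12 libraries and 4 pools in turn kept Mgl2 called in 14 of 16 fits, Cxcl16 in 14 and Plac8 in 15, but Ace, Csf3r and Cd163 in 10, Lyve1 and Pou2f2 in 9, Hp, Stab1 and Tal1 in 8, Mrc1 and Cbr2 in 7 and Abca1 in 6. The smallest library, with 48077 pairs, limits low windows, and windows listed at 0 CPM there may hold pairs at greater depth.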

Other observations

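Further higher windows are given as single genes, chosen after their values were seen and without a test of any set. Klf9, a transcription factor, held 23.4 ± 5.24 CPM in P1 and 66.9 ± 6.49 CPM in P10 (SD, n = 6 each), for a log2 difference of 1.41 (limma-voom adjusted p = 0.002898). Fkbp5, a chaperone of steroid receptors, held 78.6 ± 25.0 CPM and 129 ± 32 CPM (0.82, limma-voom adjusted p = 0.02533). Glul, glutamine synthetase, was at 1.01, also past the threshold. In the infarcted hearts at day 7 Klf9 was at 1.04 and Fkbp5 at 0.50.

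Further lower windows were also chosen after their values were seen and without a test of the set. Lgals3, which encodes galectin-3, held 139 ± 25.7 CPM in P1 and 79.5 ± 15.9 CPM in P10 (SD, n = 6 each), for a log2 difference of -0.90 (limma-voom adjusted p = 0.006321). Plaur, the urokinase receptor, was at -0.89, Anxa2 at -1.04 and Cd44, the hyaluronan receptor, at -0.63, all past the threshold. S100a4 and S100a6, neighbours that hold the same read pairs, were at -0.85. Trem1, whose window overlaps that of Treml4, was at -1.44. Vim, Capg and Itgb7 did not pass, at -0.27, 0.25 and -0.01. In the infarcted hearts Lgals3 was at -0.42 and Plaur at -1.03.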
